A study of Homo sapiens with 5 samples.

Results

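The genes ID2, GATA3 and NOTCH1 encode regulators that steer lymphocytes away from the B cell fate, and their DNase I accessibility was described in 5 human B-lineage tumour lines. Members were the peaks that overlapped 1 of 3 stretches of the genome in build hg18. The ID2 window ran from 8600000 to 8850000 on chromosome 2, the GATA3 window from 8050000 to 8250000 on chromosome 10 and the NOTCH1 window from 138480000 to 138620000 on chromosome 9. Gene starts were placed at about 8.74 Mb for ID2, 8.137 Mb for GATA3 and 138.56 Mb for NOTCH1, to the nearest kb, so distances below carry that uncertainty. The windows held 69 of the 109231 peaks listed on chromosomes 1 to 22 and X. Joining peaks of different lines that shared at least 1 bp gave 40 regions of 59212, with 16 at ID2, 15 at GATA3 and 9 at NOTCH1.

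The Hodgkin group consisted of L1236, L428 and L591, cell lines from Hodgkin lymphoma. The non-Hodgkin group consisted of a line of pro-B lymphoblastic leukaemia, Reh, and a line of Burkitt lymphoma, Namalwa. All were at passage 7, and the labels give no genotype and no treatment before digestion. Nuclei were exposed to DNase I, which cuts where chromatin is accessible. Its concentration was 12 U/ml for L591 and Namalwa and 6 U/ml for the remaining lines. There was 1 library and 1 list per line, so the spread within a group is that between lines, and variation within a line could not be measured. Listed peaks numbered 25646 in L1236, 23288 in L428 and 26612 in L591, against 27925 in Reh and 5760 in Namalwa. Of all regions with a Reh peak, 18.9% also held a Namalwa peak, whereas 98.7% of Namalwa regions held a Reh peak. The absence of a peak from the short Namalwa list therefore does not show closed chromatin, and the 2 non-Hodgkin lists are not shown to be independent. The lists hold no read counts, so depth is unknown. A score is the authors' peak area and was used as a percentile within its own list.

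ID2 is a helix-loop-helix protein that lacks a DNA-binding region and holds E proteins, the activators of the early B cell programme, in inactive pairs. It is needed by natural killer and other innate lymphoid cells. GATA3 is a zinc finger transcription factor that directs the development of T cells and of some innate lymphoid cells. NOTCH1 is a receptor whose cleaved intracellular part joins the DNA-binding protein CSL and commits progenitors to the T lineage. Hodgkin tumour cells, which derive from B cells, are known to express all of them while many B cell genes are silent. A peak here shows open chromatin near the gene and says nothing of its RNA.

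The 250 bases before each gene's start are shown because peaks lay at or beside them, with matches to the E-box letters CANNTG, the class of site that E proteins bind, in capitals. They come from RefSeq and are given 5′ to 3′ along the gene's own strand, with coordinates in GRCh38.p14, which must not be set beside the hg18 positions of the peaks. The ID2 stretch is chr2:8681806-8682055 (plus strand), the GATA3 stretch chr10:8054438-8054687 (plus strand) and the NOTCH1 stretch chr9:136546049-136546298 (minus strand). For GATA3, which has 6 starts in the table, the start was taken whose distance to the gene's end came nearest to the length in hg18.
ID2: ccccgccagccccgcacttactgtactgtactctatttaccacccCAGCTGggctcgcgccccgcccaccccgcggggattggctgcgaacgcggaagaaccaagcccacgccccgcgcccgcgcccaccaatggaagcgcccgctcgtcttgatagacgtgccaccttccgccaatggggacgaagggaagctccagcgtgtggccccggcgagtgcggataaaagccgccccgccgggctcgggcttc
GATA3: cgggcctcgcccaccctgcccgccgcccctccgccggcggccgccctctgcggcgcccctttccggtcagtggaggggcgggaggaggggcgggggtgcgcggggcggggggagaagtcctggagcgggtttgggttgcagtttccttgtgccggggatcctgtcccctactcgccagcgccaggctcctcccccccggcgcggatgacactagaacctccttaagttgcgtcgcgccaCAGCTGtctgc
NOTCH1: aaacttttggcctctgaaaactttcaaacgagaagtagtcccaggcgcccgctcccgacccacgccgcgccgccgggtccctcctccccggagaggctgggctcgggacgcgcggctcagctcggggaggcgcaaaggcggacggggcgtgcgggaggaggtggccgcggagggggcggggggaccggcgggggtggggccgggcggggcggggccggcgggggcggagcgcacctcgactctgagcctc

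All 3 stretches are rich in G and C, at 69.2% for ID2, 73.6% for GATA3 and 76.0% for NOTCH1, and hold 29, 26 and 33 CG pairs in the same order. ID2 and GATA3 each held 1 E-box match, CAGCTG in both, and NOTCH1 held none, where 61.8% of the 35116 promoter stretches in the table held at least 1. On either strand, none of the 3 held AGATAA, used here for GATA (9.17% of all promoters), TGANTCA for AP-1 (6.57%) or TGGGAA for CSL (20.8%). Only these exact letters were searched, so other forms of the sites, such as TGATAG for GATA in the ID2 stretch, were not counted. A loose NF-kB motif, 3 G and 2 C around any 5 bases, matched 2 times in ID2, 3 times in GATA3 and 3 times in NOTCH1, with a match in 54.4% of all promoters. Matches to it could overlap one another. These matches describe letters in a window and are not binding sites.

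The 3 genes showed 3 different patterns across the lines. ID2 had peaks in all 5 lists, and the peak at its start was common to all of them. GATA3 had peaks in the 3 Hodgkin lists only, and NOTCH1 had most of its peaks in Reh and L591. The GATA3 window held 10 L1236 peaks, 8 L428 peaks and 2 L591 peaks, against 0 in Reh and 0 in Namalwa. In the ID2 window L1236 had 6 peaks, L428 had 6 and L591 had 11, against 12 in Reh and 1 in Namalwa. The NOTCH1 window held 0 peaks in L1236, 1 in L428 and 5 in L591, against 7 in Reh and 0 in Namalwa.

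**Figure D1:**
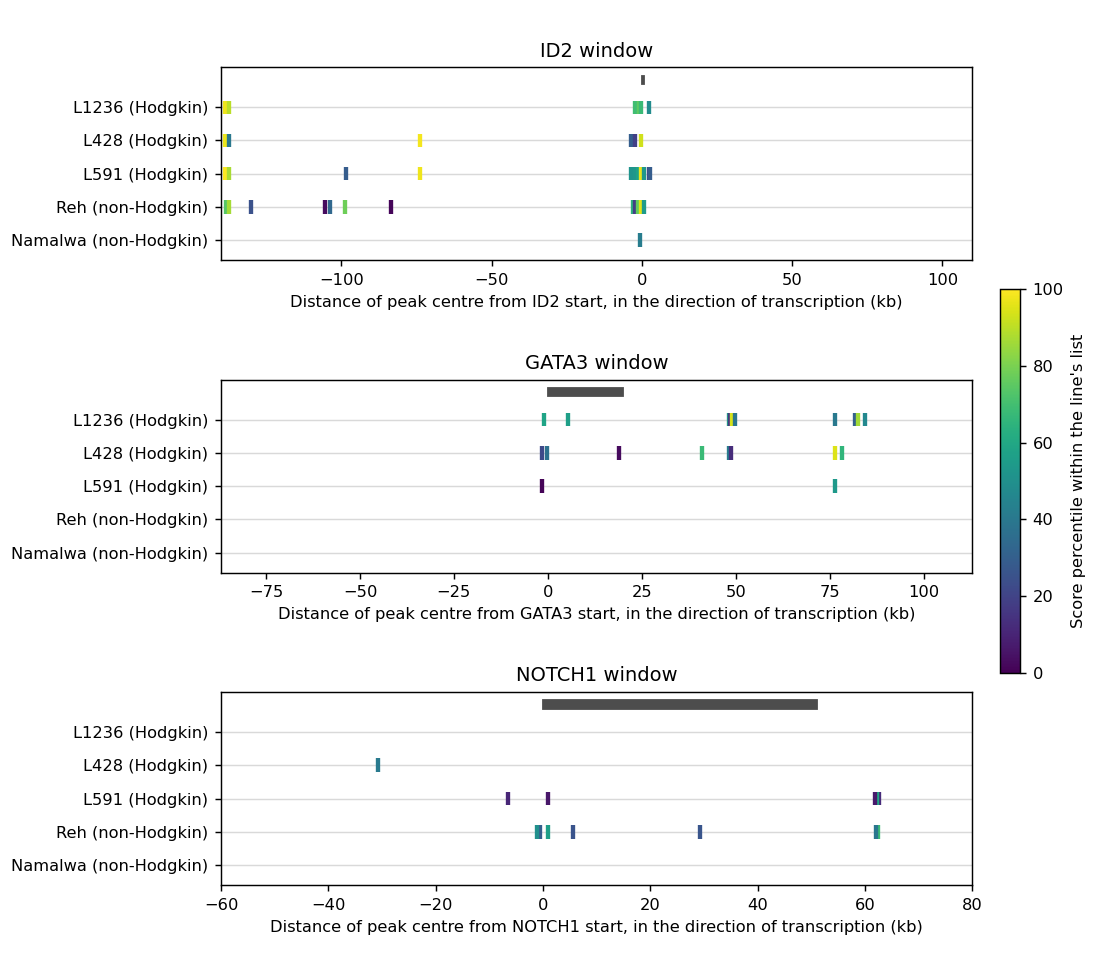
Peaks of the 5 lines in the 3 windows, with the distance of each peak's centre from the gene's start on the x axis (kb, in the direction of transcription) and 1 row per line. Ticks mark centres only, their colour is the score percentile within the list, and the grey bar is the position used for the gene (for ID2 its start alone); GATA3 has ticks in the 3 Hodgkin rows and none in the Reh and Namalwa rows.

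To allow for list length, peaks were counted per 1000 peaks of the list. At GATA3 L1236 had 0.390 (exact 95% interval 0.187 to 0.717), L428 had 0.344 (0.148 to 0.677) and L591 had 0.075 (0.0091 to 0.272), with no peak in Reh or Namalwa. The groups did not overlap, and L591 lay far below the other Hodgkin lines. The Hodgkin mean was 0.270 ± 0.170 (SD, n = 3) and the non-Hodgkin mean 0.0 ± 0.0 (SD, n = 2), a difference of 0.270. Of the 10 ways to part 5 lines into groups of 3 and 2, 2 gave an absolute difference at least as large (two-sided exact permutation p = 0.2; no p below 0.1 is possible). Of 9948 windows of 200 kb with any peak, 16.8% also had all 3 Hodgkin lines above both non-Hodgkin lines, so this order by itself is common. A peak in all 3 Hodgkin lists and in neither non-Hodgkin list was found in 6.95% of them. The intervals cover counting error only and treat neighbouring peaks as independent.

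Lines digested alike kept this order at GATA3. At 6 U/ml, L1236 (0.390) and L428 (0.344) stood against Reh without a peak, and at 12 U/ml L591 (0.075) stood against Namalwa without a peak. Because every Hodgkin line lay above both non-Hodgkin lines, any subset keeps this order, and the part played by the concentration was not tested. Cut to the 5760 highest-scoring peaks of each list, the GATA3 window held 2 peaks in L1236, 1 in L428 and 0 in L591, against 0 in Reh and 0 in Namalwa. The groups then overlapped at 0, through L591.

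The groups overlapped at ID2. Per 1000 peaks the value was 0.234 in L1236 (exact 95% interval 0.0859 to 0.509), 0.258 in L428 (0.0946 to 0.561) and 0.413 in L591 (0.206 to 0.740), against 0.430 in Reh (0.222 to 0.751) and 0.174 in Namalwa (0.0044 to 0.967). The highest and the lowest line were both non-Hodgkin. The mean was 0.302 ± 0.097 (SD, n = 3) in Hodgkin lines and 0.302 ± 0.181 (SD, n = 2) in non-Hodgkin lines (two-sided exact permutation p = 1.0). At 6 U/ml L1236 and L428 lay below Reh, and at 12 U/ml L591 lay above Namalwa, so the direction differed between concentrations. Higher values in all Hodgkin lines were found in 17.8% of the 8437 windows of 250 kb with any peak, and lower values in 10.8%.

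At NOTCH1 the value was 0.043 in L428 (exact 95% interval 0.0011 to 0.239) and 0.188 in L591 (0.061 to 0.438), against 0.251 in Reh (0.101 to 0.516), while L1236 and Namalwa had no peak. The groups overlapped, since each had a line without any peak. The mean was 0.077 ± 0.098 (SD, n = 3) in Hodgkin lines and 0.125 ± 0.177 (SD, n = 2) in non-Hodgkin lines, a difference of -0.048 (two-sided exact permutation p = 0.7). Here too L1236 and L428 lay below Reh at 6 U/ml, and L591 lay above Namalwa at 12 U/ml. In windows of 140 kb with any peak, lower values in all Hodgkin lines were found in 9.1% and higher values in 15.9%.

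**Figure D2:**
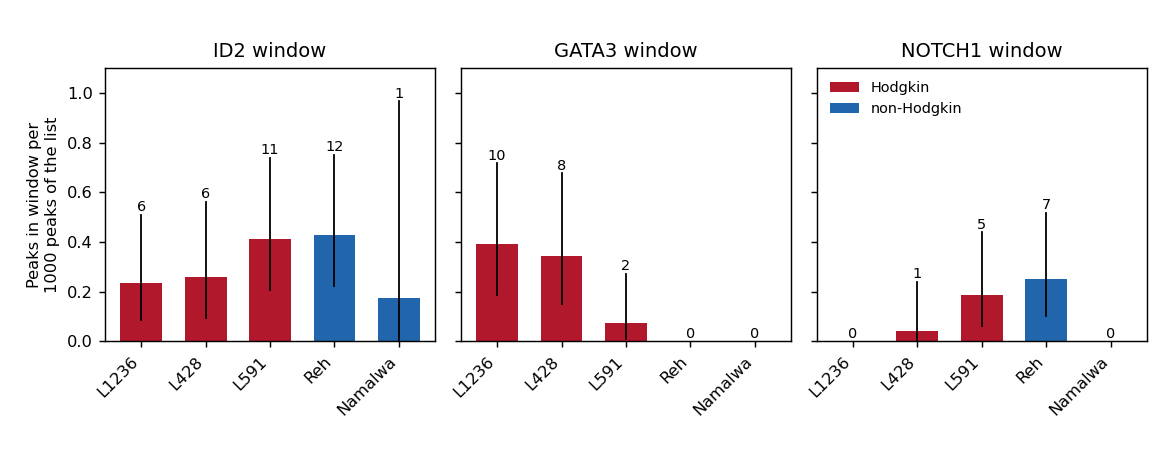
Peaks in each window per 1000 peaks of the line's list (y axis), with 1 bar per line, Hodgkin in red and non-Hodgkin in blue. Black lines are exact 95% intervals for counting error, drawn where a line has a peak, and the number above a bar is its count of peaks; at GATA3 the bars of L1236 and L428 stand at 0.390 and 0.344 and those of Reh and Namalwa are empty.

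In the ID2 window, open chromatin gathered in a cluster at the gene, with further peaks far upstream that reached the window's lower edge. Within 5 kb of the start there were 4 peaks in L1236, 3 in L428 and 7 in L591, against 5 in Reh and 1 in Namalwa. The remaining ID2 peaks all lay upstream, with 2 in L1236, 3 in L428 and 4 in L591, against 7 in Reh and 0 in Namalwa. Peaks went on below the window, so its edge does not mark the end of a group. The next 250 kb below it held 5 peaks in L1236, 8 in L428 and 20 in L591, against 8 in Reh and 0 in Namalwa. More than 5 kb downstream, no list had a peak up to the end of the window. In L1236, L428, L591 and Reh the next peak lay 11.6 to 11.7 kb beyond that end, and in Namalwa 631 kb beyond it.

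The region at the ID2 start, 8739321 to 8740080 on chromosome 2 (hg18), was the only member with a peak in all 5 lists, a class that makes up 5.12% of all regions. The peak there had a score percentile of 67.6 in L1236, 92.9 in L428 and 96.5 in L591, against 95.4 in Reh and 41.8 in Namalwa. It was the highest-scoring ID2 peak of Reh and the sole ID2 peak of Namalwa. It lay within the 5760 highest-scoring peaks of L428, L591 and Reh but not of L1236. The Namalwa list is 5760 peaks long, so this comparison says nothing of Namalwa. Its peak was 460 bp wide in L1236, 520 bp in L428 and 700 bp in L591, against 620 bp in Reh and 270 bp in Namalwa. All of them lay within 0.68 kb of the placed start, which the ID2 sequence shown above precedes.

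Further regions flanked the ID2 start, and ranked below it in L428, L591 and Reh, whereas in L1236 the 2 nearest upstream ranked above it. One centred 2.1 kb upstream (8737581 to 8738140) had a peak in L1236, L428, L591 and Reh, at percentiles 69.2, 19.0 and 53.0 in the Hodgkin lines and 18.2 in Reh. Another, 1.1 kb upstream (8738541 to 8739200), stood at 75.3 in L1236 and 57.8 in L591, against 75.9 in Reh, with no L428 peak. At 3.5 kb upstream (8736301 to 8736690), L428 and L591 shared a region at percentiles 29.5 and 51.9, and just beside it Reh had a peak of its own (8736781 to 8737300, percentile 64.3). L591 and Reh shared a region 0.6 kb downstream (8740361 to 8740930), at 53.5 and 54.5, and L1236 and L591 one 2.3 kb downstream (8742141 to 8742510), at 48.1 and 23.4.

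**Figure D3:**
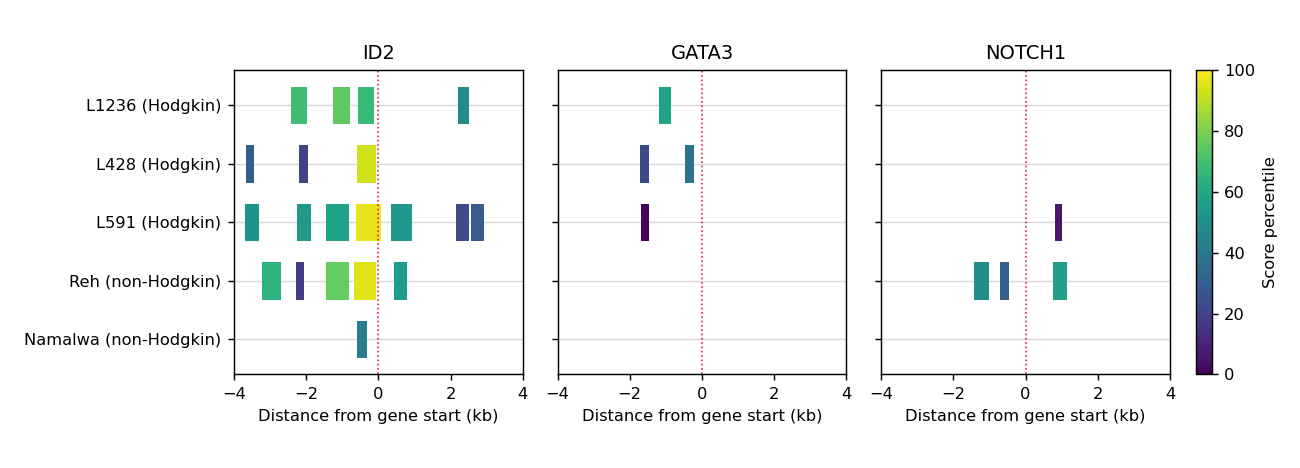
Peaks within 4 kb of each gene's start, drawn to scale as boxes from peak start to peak end (x axis, kb in the direction of transcription; dotted line, gene start as placed to the nearest kb), with 1 row per line and the score percentile as colour. At ID2 a box just before the start is present in every row; at GATA3 the Hodgkin rows alone have boxes, and at NOTCH1 the L591 and Reh rows alone.

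The strongest ID2 peaks of L1236 and L591 lay far from the gene, in a region centred 138.7 kb upstream (8600681 to 8601880). L1236 had it at percentile 97.3, L428 at 96.9 and L591 at 99.3, against 73.6 in Reh, and the Namalwa list lacked it. All 3 Hodgkin lines placed it above Reh's percentile. This region was among the 5760 highest-scoring peaks of each Hodgkin list and not of the Reh list. A neighbour centred 137.4 kb upstream (8602051 to 8603170) showed no such order, with 89.6 in L1236, 40.0 in L428 and 87.1 in L591, against 86.4 in Reh. Ranks come from lists of different length and no test was made on them. How many of all regions show such an order was not counted, so it may be common.

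L428 and L591 shared a region of high rank 73.8 kb upstream of ID2 (8665871 to 8666620), at percentiles 98.2 and 97.6. L1236, Reh and Namalwa had no peak there. For L428 it was the highest-scoring peak of the window. L591 and Reh shared a region 98.6 kb upstream (8641141 to 8641750), at 29.2 in L591 and 78.0 in Reh. Reh had 4 more distal regions to itself, between 83.4 and 130.1 kb upstream, at percentiles of 33.5 or less. Of all regions, 21.5% had a Reh peak alone.

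**Figure D4:**
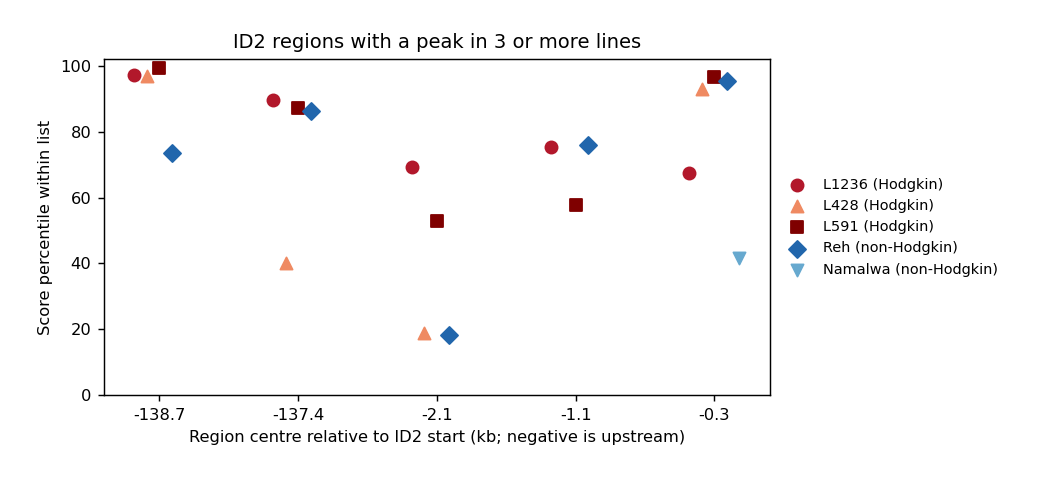
Score percentile within its own list (y axis) of the highest-scoring peak of each line at the 5 ID2 regions with a peak in 3 or more lines (x axis, region centre relative to the ID2 start in kb, not to scale). Points are lines, and a missing point means no peak; at the region 138.7 kb upstream the Hodgkin lines stand between 96.9 and 99.3 and Reh at 73.6.

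Sharing between lines was frequent at ID2. Of its 16 regions, 10 had a peak in at least 2 lines, against 37.1% of all regions. Hodgkin and non-Hodgkin lines shared 7, while 4 had a Hodgkin peak alone (55.9% of all regions) and 5 a non-Hodgkin peak alone (22.6% of all regions). The rest of all regions were shared by Hodgkin and non-Hodgkin lines. A Reh peak lay in 5 of 6 ID2 regions of L1236, 4 of 6 of L428 and 7 of 11 of L591, against 30.2%, 42.6% and 42% of all regions of those lines. No ID2 region had a peak in all 3 Hodgkin lines without a non-Hodgkin one. That class makes up 4.33% of all regions, so its absence among 16 says little.

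At GATA3, all 15 regions had Hodgkin peaks alone (55.9% of all regions), and none of the regions of L1236, L428 or L591 held a Reh peak. Both counts follow from the lack of any Reh or Namalwa peak in the window and are no further result. Of the 15, 4 were in at least 2 lines (37.1% of all regions), a share near that of the whole set. L1236 had 7 regions to itself (19.8% of all regions) and L428 had 4 (9.02% of all regions). L1236 shared 3 of its 10 regions with L428 (30.0%, or 37.5% of the 8 L428 regions), where over all regions the shares were 38.4% of those of L1236 and 43.3% of those of L428. Both L591 regions held an L428 peak, as did 55.1% of all L591 regions.

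A single GATA3 region had a peak in all 3 Hodgkin lines, centred 76.4 kb downstream of the start (8213091 to 8213790 on chromosome 10, hg18). Regions with this pattern make up 4.33% of all regions. L1236 had it at percentile 40.3, L428 at 94.7 and L591 at 53.6. It was the highest-scoring peak of the window for L428 and for L591, and below the middle of the list for L1236.

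Close to the GATA3 start, each Hodgkin line had a peak but not at one common site. L428 and L591 shared a region centred 1.6 kb upstream (8135281 to 8135530), at percentiles 22.1 and 1.0, both low in their lists. L1236 had its peak 1.0 kb upstream (8135801 to 8136130), at 58.4. L428 had another 0.3 kb upstream (8136541 to 8136790), at 37.0, the region nearest to the placed start. Within the gene, L1236 had a peak at 5.3 kb (8142171 to 8142500, percentile 56.0) and L428 one at 18.9 kb (8155801 to 8155970, percentile 2.4). The GATA3 sequence shown above precedes this start.

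Most GATA3 peaks lay beyond the gene. More than 5 kb downstream of the start there were 9 peaks in L1236, 6 in L428 and 1 in L591. Of these, 1 in L1236 and 1 in L428 lay inside the gene. No Hodgkin list had a peak more than 5 kb upstream. L1236 and L428 shared regions centred 48.1 kb (8184881 to 8185270) and 49.0 kb downstream (8185681 to 8186360). The first ranked at 56.8 in L1236 and 42.0 in L428, the second at 93.4 in L1236 and 12.8 in L428. The second held the highest-scoring GATA3 peak of L1236, which ranked low in L428. L1236 alone had a region 82.5 kb downstream (8219171 to 8219910) at percentile 86.0, and L428 alone had regions 41.1 kb and 78.4 kb downstream at 67.8 and 65.5.

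Above the window the neighbourhood of GATA3 continued the pattern, mainly in L1236 and L428. In the next 200 kb above the window L1236 had 8 peaks, L428 had 11 and L591 had 1, against 0 in Reh and 0 in Namalwa. The L591 peak ranked at percentile 4.3. The 15 regions of this stretch lay 261 to 313 kb from the start, and 4 of them were shared by L1236 and L428 alone (1.85% of all regions). The protein-coding neighbours in RefSeq order are TAF3 below and CELF2 above. In the 200 kb below the window the lines did not separate in this way, with 1, 3 and 3 peaks in L1236, L428 and L591, against 2 in Reh and 1 in Namalwa.

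Reh had no peak between 7900531 and 11245140 on chromosome 10, a stretch of 3.34 Mb that holds the GATA3 window. Within it L1236 had 19 peaks, L428 29 and L591 5, in 42 merged regions. Of the 27902 intervals between neighbouring Reh peaks, 31 held as many regions of other lines. The Namalwa list had no peak over nearly the same stretch, 3.37 Mb, but 224 of its 5737 intervals held as many regions.

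At NOTCH1 no region was shared by 2 Hodgkin lines, but with no L1236 region and 1 in L428, a single region could have been. Over all regions, 65.7% of those of L428 held an L591 peak. Of the 9 NOTCH1 regions, 2 were common to L591 and Reh (2.71% of all regions had a peak in these lines alone), 3 had a Hodgkin peak alone (55.9%) and 4 a Reh peak alone (21.5%). At the start, L591 and Reh shared a region centred 1.0 kb inside the gene (138558851 to 138559230 on chromosome 9, hg18), at percentile 5.9 in L591 and 56.0 in Reh. Reh had 2 further regions just upstream, centred 0.6 kb (138560451 to 138560700) and 1.2 kb (138561021 to 138561440) before the start, at 30.0 and 49.9. The first lies nearest to the placed start, where the NOTCH1 sequence shown above belongs. No peak of the window ranked high in its list, and the highest percentile was 68.1, in Reh.

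That highest NOTCH1 peak lay in the other region common to L591 and Reh (138497201 to 138498080), where L591 reached 59.2. The region was centred 62.4 kb into the direction of transcription. That is 11.4 kb past the position used for the gene's end, on the side where RefSeq places SEC16A. More than 5 kb downstream of the start L591 had 3 of its 5 peaks, none of them inside the gene. Reh had 4 of its 7 peaks there, of which 2 were inside the gene. Whether the peaks past the gene's end belong to NOTCH1 or to SEC16A was not tested. Inside the gene, Reh alone had peaks at 5.6 kb and 29.3 kb, at percentiles 25.8 and 26.3. Upstream, L591 had a peak at 6.5 kb (percentile 10.7) and L428 its only peak at 30.7 kb (138590541 to 138590820, percentile 40.7). With 5760 peaks in each list, no line had a peak in the NOTCH1 window.

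The lack of L1236 peaks at NOTCH1 was known when the window was chosen and reached far beyond it. L1236 had no peak from 137500961 to 139006930 on chromosome 9, a stretch of 1.51 Mb. L428 had 26 peaks there and L591 26, against 62 in Reh and 9 in Namalwa, in 78 merged regions. Of the 25623 intervals between neighbouring L1236 peaks, 2 held as many regions of other lines, this one included. From 138 to 139 Mb the counts were 0 in L1236, 24 in L428 and 24 in L591, against 55 in Reh and 9 in Namalwa. From 139 to 140 Mb L1236 had 8 peaks, L428 16 and L591 28, against 85 in Reh and 13 in Namalwa. L1236 was not short of peaks on the chromosome as a whole, which held 4.2% of its list. The share was 4.13% in L428 and 4.35% in L591, against 4.09% in Reh and 3.73% in Namalwa. DNA copy number was not measured here.

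**Figure D5:**
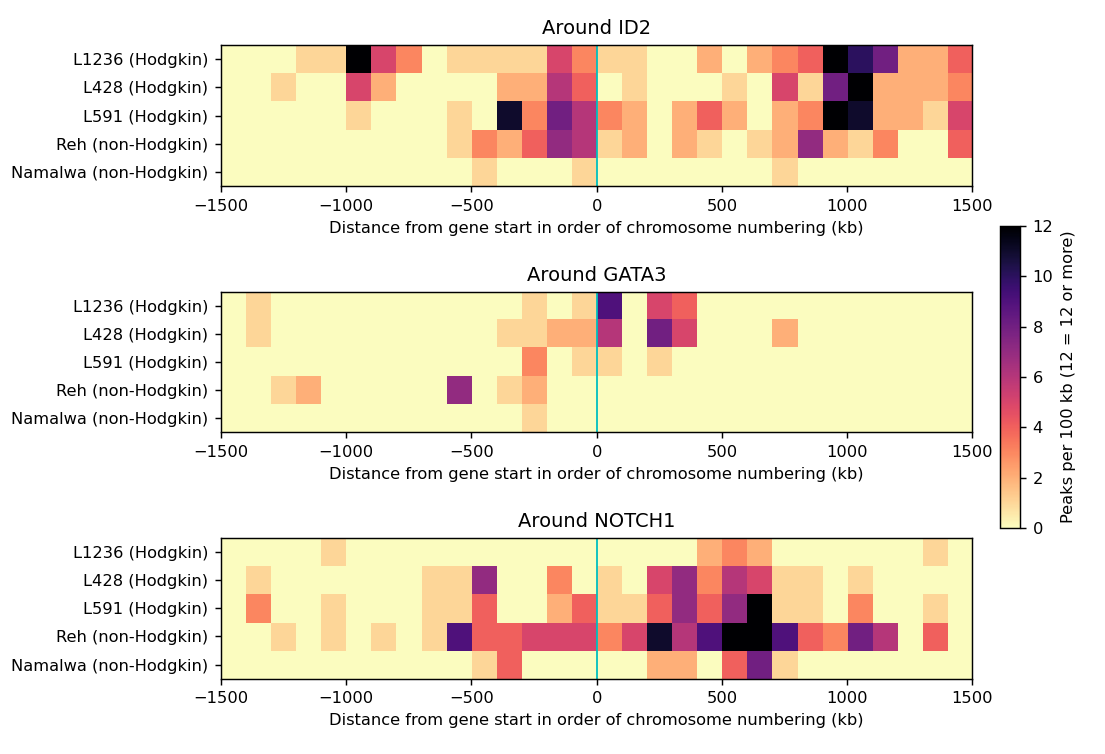
Peaks per 100 kb (colour, capped at 12) within 1500 kb of each gene's start in order of chromosome numbering (x axis, kb), with 1 row per line and the start at the vertical line. Around NOTCH1 the L1236 row is empty between -1000 and 400 kb, while the Reh row has peaks in every bin between -600 and 1200 kb; around GATA3 the Reh and Namalwa rows are empty above the start.

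Set beside windows of the same size with a peak in at least 1 line, the members ranged from well filled to empty within 1 list. Windows without a peak in any line were left out of the shares below. As many peaks as at ID2 were found in 16.0% of windows of that size in L1236, 14.5% in L428 and 4.78% in L591, against 6.29% in Reh. As many as at GATA3 were found in 5.08% in L1236, 5.74% in L428 and 52.4% in L591, and 34.8% of such windows lacked a Reh peak. As many as at NOTCH1 were found in 12.7% in L591, against 8.51% in Reh, and 38.7% lacked an L1236 peak. An empty window is thus frequent in each list, Namalwa most of all, with 70.6% of such 200 kb windows.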

How the data were processed

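Peak lists from DNase-seq of 3 Hodgkin and 2 non-Hodgkin lines were used, with groups taken from the labelled lymphoma type. The submitters' processing notes name Bowtie 1.00 and the build hg18. Reads had been elongated to 146 bp and binned at 10 bp, per the file headers. Neither a peak caller, a threshold nor a depth is given in the sources. Each peak's score, as deposited, is an area computed by the authors, in whole numbers and without a stated scaling. Lists were made by the authors line by line, and 4 carry the mark qcTrimmed, unlike that of L1236. The smallest score per bp was 12.0 in L1236 but 3.67 in Reh, so the lists may not share a threshold.

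Peaks on chromosomes 1 to 22 and X were kept, a peak belonged to a window if it overlapped it by 1 bp, and the percentile is the share of the list with that score or less. Group means of peaks per 1000 listed peaks were compared by two-sided exact permutation, with lines as the replicates. The p-value is the share of splits of the lines with an absolute difference at least as large. It takes the lines as independent, which is not shown for the non-Hodgkin lists. All members, every region in at least 2 lines, the region nearest to each start and each line's highest-scoring peak were to be named. Genes, windows and motifs were chosen with earlier results of these data known. Other genes of the same pathways were not placed, since no hg18 annotation was used here. RefSeq matched 3 of 3 genes. Merging was checked on 13617 simulated regions, where 100.0% of those in the Hodgkin lines alone were recovered. The simulated sites lay far apart, so this checked the code only and not the merging of peaks that lie close together. Python 3.11.15, numpy 2.4.6, pandas 2.3.3, scipy 1.17.1 and matplotlib 3.10.9 were used.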

Additional observations from a re-analysis of the deposited data

How the results depend on the processing

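The short Namalwa list, the single list per line and the unknown peak threshold limit every comparison, and with 5 lines no permutation p can fall below 0.1. No paired analysis was made because the labels give no pairing between Hodgkin and non-Hodgkin lines. With the DNase I concentration as a block instead, chosen after seeing the data, the difference in peaks per 1000 peaks was 0.242 at GATA3 (two-sided exact permutation within concentrations, p = 0.167, the smallest that its 6 splits allow), -0.00236 at ID2 (exact p = 1.0) and -0.0504 at NOTCH1 (exact p = 0.667). The GATA3 difference could not turn in any of the 14 alternatives, since Reh and Namalwa had no peak in the window or in the one 2 times as wide, so its direction there says nothing of stability. Its size ranged from 0.174 with lists of equal length to 0.298 with a window 2 times as wide among those with all lines, and from 0.209 to 0.367 with 1 line left out. In unscaled peaks it was 6.67, and in covered bp per 1 Mb covered 249. The ID2 difference was -1.83e-05, in effect none, so its direction turned easily. It was 1.17 in unscaled peaks, 92.7 in covered bp per 1 Mb covered, 0.26 with lists of equal length, 0.166 with the upper 50% of each list, 0.0331 with a window 0.5 times as wide, 0.12 with one 2 times as wide, and -0.128 to 0.128 with 1 line left out (0.128 without Reh, -0.128 without Namalwa). The NOTCH1 difference was 0.0 with lists of equal length, where no line had a peak, and -0.174 to 0.0769 with 1 line left out, positive without Reh. Its size moved to -0.111 with a window 2 times as wide.

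Regions with a peak in all 3 Hodgkin lines alone (4.33% of all regions) numbered 0 at ID2, 1 at GATA3 and 0 at NOTCH1. At ID2 there was 1 with peaks set to 200 bp, 1 with lists of equal length, 3 with a window 2 times as wide, and 0 to 3 with 1 line left out (2 without L1236, 1 without L428, 3 without Reh). At GATA3 there were 0 with lists of equal length, 0 with the upper 50% of each list, 1 to 3 with 1 line left out (2 without L1236, 3 without L591), and 2 with peaks up to 500 bp apart joined, an alternative chosen after seeing the data. NOTCH1 stayed at 0 in 11 of 11 alternatives. L1236 had no peak in that window or in the one 2 times as wide. The count could therefore change only with L1236 left out, and its constancy says nothing of stability.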
